A study of Rattus norvegicus with 8 samples.

Results

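The SERPINA genes, clade A of the serpin superfamily, encode inhibitors and hormone carriers that the liver releases into the blood. The set described here has 10 genes: Serpina1, Serpina3k, Serpina3m, Serpina3n, Serpina4, Serpina5, Serpina6, Serpina7, Serpina10 and Serpina11. They were chosen by name, with earlier diet results of these arrays known, as the genes whose array label equals one of these symbols on non-control spots. All 10 had a probe, 11 probes in all, among 30367 probes on the array. All 11 probes were well above background in 8 of 8 samples, so that no member was lost among the 14857 genes tested.

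RNA came from livers of Wistar rats aged 21 days, 4 controls born to dams on a standard diet and 4 deficient pups born to dams whose food lacked vitamin B12 and folates. The dams ate these diets from 1 month before pregnancy until the pups were weaned, so that the exposure covered gestation and lactation. Male pups were 1 of the controls and 2 of the deficient animals. Each of 4 two-colour arrays carried 1 control and 1 deficient sample in different dyes. Neither dam nor litter was given for any animal in the sources used here. Sample titles carry codes of unstated meaning, in which control replicates 1, 2 and 3 have one letter in common and deficient replicates 2 and 4 another. Littermates may therefore be among the 4 animals of a group, and the errors below measure the spread between these animals only.

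A serpin presents an exposed reactive loop as bait. The target protease cleaves the loop, stays bound to it and is inactivated as the serpin changes shape, so each serpin molecule works once. Some members of the clade have lost inhibition and use the same fold to carry a hormone in plasma. Most of the genes lie side by side in one cluster, and in rodents the Serpina3 part of it has multiplied into several closely related copies.

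The largest difference between the groups was in Serpina3k, which belongs to the antichymotrypsin-like Serpina3 branch and was 7.60-fold lower in deficient livers. Serpina1, the alpha-1-antitrypsin that inhibits neutrophil elastase, was 1.51-fold lower. These were the 2 of 10 members called lower, none was called higher, and 8 were not called. A gene is called here when its limma p-value, adjusted over all 14857 genes by Benjamini-Hochberg, is under 0.05. Of all genes 6.60% were called lower and 4.58% higher, and nothing is read from the members' count because the members were picked with diet results known. The values of the members are therefore given as a description.

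Levels below are normalised log2 intensities, with the mean ± SD over n = 4 animals, and differences are log2 values of deficient minus control, each with its SE and 95% interval from the fit. Intensities of different probes cannot be ranked against each other. Median spot signals were between 152.5 and 299 over median backgrounds of 33 to 58, and none was saturated. With 4 arrays the precision is limited by their number. Of the hepatocyte markers, 8 of 8 were measured, with Tf (-1.01) and Ttr (-0.89) called lower. The other 6 were not called and lay on both sides of 0, with Alb at -1.01, Cps1 at -0.48 and Hnf4a at -0.16, and Tat at 0.92, Apoa1 at 0.35 and Apob at 0.24. The log2 of the summed intensities of the markers was 19.59 to 20.1 in controls and 19.12 to 19.71 in deficient livers. The brightest probes weigh most in such a sum. In whole liver, fewer cells of a type and less RNA per cell cannot be told apart, and the part of these markers in the SERPINA values was not tested.

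The 60-base probes behind the largest differences are shown because the Serpina3 copies are similar and the measured stretch decides which transcripts can bind. The neighbour that the array names LOC299282 is included. They are given 5' to 3', with rn4 positions from the deposited files.
Serpina3k probe A_64_P110234, chr6:128379719-128379778, minus strand: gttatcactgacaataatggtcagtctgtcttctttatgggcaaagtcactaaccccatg
LOC299282 probe A_44_P412140, chr6:128441357-128442327, plus strand: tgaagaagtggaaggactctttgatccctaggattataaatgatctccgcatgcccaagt
Serpina1 probe A_44_P524718, chr6:127999839-128000771, minus strand: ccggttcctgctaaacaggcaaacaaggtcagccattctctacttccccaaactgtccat
The Serpina1 interval is 933 bases long for a 60-base probe and that of LOC299282 is also longer than its probe, while the Serpina3k interval is 60 bases. Exon positions were not analysed here. The record behind the Serpina3k probe now carries the symbol Serpina3c in RefSeq. Whether other Serpina3 transcripts bind these probes was not tested.

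Serpina3k read 16.23, 16.18, 16.17 and 15.96 in control replicates 1 to 4. In deficient replicates 1 to 4 it read 12.08, 13.53, 14.63 and 12.60. The controls lay within a narrow band, the deficient livers were spread over a wide range, and the groups did not overlap. The control mean was 16.14 ± 0.12 (SD, n = 4) and the deficient mean 13.21 ± 1.12 (SD, n = 4). The difference was -2.93 ± 0.38 (95% interval -3.80 to -2.06), which as a fold is 7.60 with an interval of 4.16 to 13.9. Within the arrays it was -1.60, -4.09, -3.58 and -2.44 on arrays 1 to 4, so the deficient sample was lower each time. Of the 14857 genes tested this was number 1 by size of the fall. Groups did not overlap, with the deficient side lower, in 5.96% of all genes, and in 5.51% the deficient side was higher.

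Serpina1 read 17.50, 17.85, 17.78 and 17.88 in control replicates 1 to 4. In deficient replicates 1 to 4 it read 16.67, 17.42, 17.33 and 17.22. All deficient livers were below all controls, but the highest deficient value and the lowest control value lay close together. The means were 17.76 ± 0.17 in controls and 17.16 ± 0.34 in deficient livers (SD, n = 4 each). The difference was -0.59 ± 0.13 (95% interval -0.90 to -0.29). By array it was -0.17, -1.11, -0.63 and -0.46, lower in 4 of 4. Its call depended on the setting: it was kept in 11 of 26 other settings, and without deficient replicate 1 the difference was -0.44 with a limma adjusted p of 0.0507. In the authors' deposited table of normalised values it was -0.28.

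**Figure D1:**
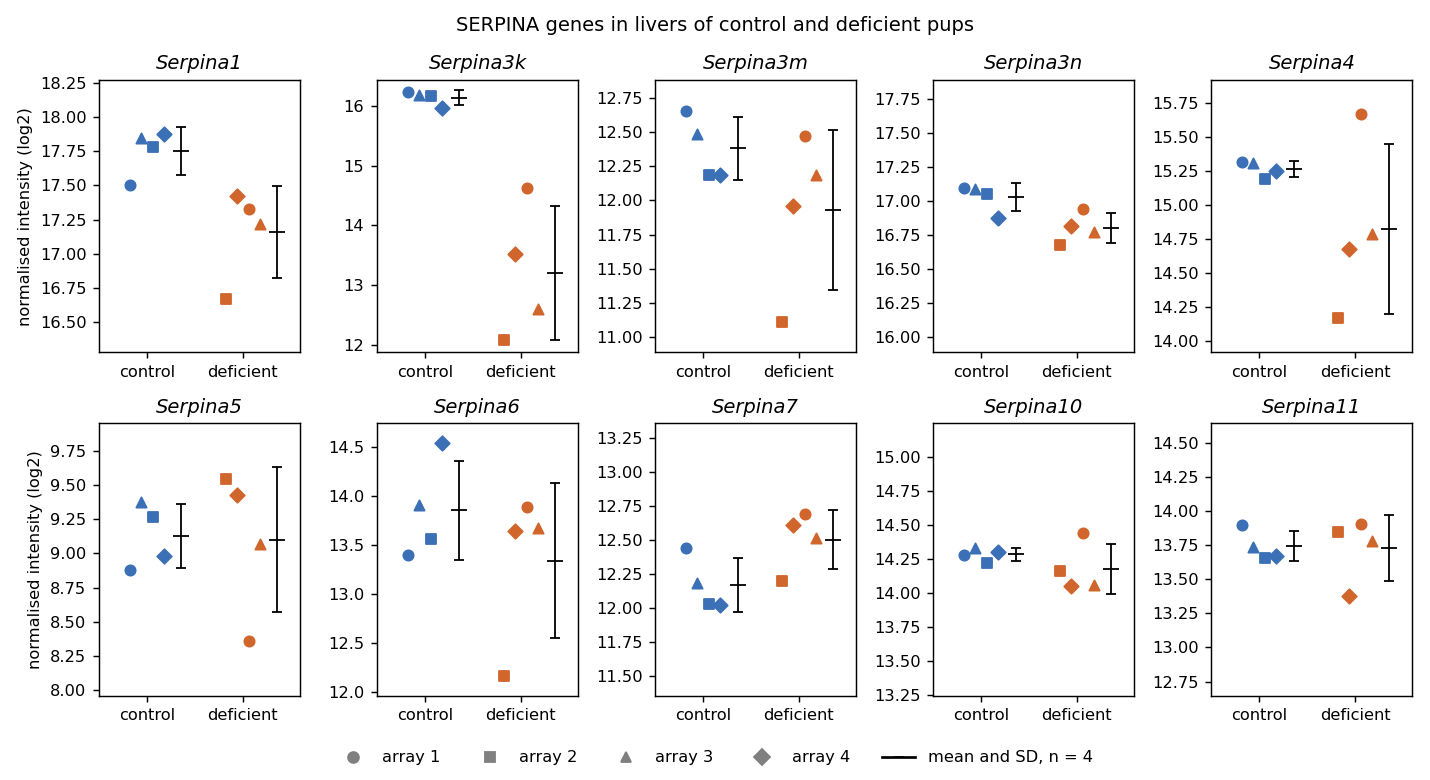
Normalised log2 intensity of each SERPINA gene (vertical axis, a separate scale in each panel) in the 4 control and 4 deficient livers, with the marker shape giving the array and the bar giving mean and SD, n = 4. Serpina3k and Serpina1 are the panels in which no deficient point reaches a control point, and the Serpina3k panel spans the widest range, from 12.08 to 16.23.

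Serpina3m and Serpina3n, the other measured members of the antichymotrypsin-like branch, were not called. Serpina3n read 17.10, 17.09, 17.05 and 16.88 in controls and 16.68, 16.82, 16.94 and 16.77 in deficient replicates 1 to 4. The groups overlapped through 1 deficient and 1 control liver, and the difference was -0.23 ± 0.08 (95% interval -0.42 to -0.04). Serpina3m read 12.66, 12.49, 12.19 and 12.19 in controls and 11.11, 11.96, 12.47 and 12.19 in deficient livers, with deficient replicate 1 far below the rest. Its difference was -0.45 ± 0.19 (95% interval -0.89 to -0.02), and it was -0.19 without deficient replicate 1 and -0.24 without array 2, where that liver was measured. Both genes were lower in the deficient sample on 4 of 4 arrays. For Serpina3n the direction did not hold in the authors' deposited table, where the difference was 0.059.

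LOC299282, named Serpina3l in RefSeq, lies between Serpina3k and Serpina3n on chromosome 6 and was not a member by name. Its brighter probe, printed above, read 14.75, 14.77, 14.79 and 14.78 in controls. In deficient replicates 1 to 4 it read 11.56, 12.10, 13.26 and 11.33. The controls were nearly identical and every deficient liver was lower. By this probe, which stood for the gene in the fit, the level fell by 2.71 ± 0.30 on the log2 scale (limma adjusted p = 0.0024). The array differences were -1.49, -3.23, -3.44 and -2.68. Leaving out any 1 animal kept this probe's difference between -3.16 and -2.31, with limma adjusted p-values of at most 0.0181. The second probe under the same label, at chr6:128450163-128450222, disagreed. It read 9.36, 9.25, 9.33 and 8.88 in controls and 9.65, 8.84, 9.18 and 9.13 in deficient livers, a difference of -0.0037 ± 0.13 (limma adjusted p = 0.989). Which of the probes reports this transcript was not tested.

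Along the rn4 map of chromosome 6 the measured genes run in the order Serpina10, Serpina6, Serpina1, Serpina11, Serpina4, Serpina5, Serpina3m, Serpina3k, LOC299282 and Serpina3n. Their probes start between positions 127887685 and 128469197. Serpina7 lies apart on chromosome X. The Serpina3k probe and the brighter LOC299282 probe, which both fell, are next to each other in this order. Whether they read separate transcripts was not tested. The flanking Serpina3m and Serpina3n have intervals that reach down to -0.89 and -0.42. A test of the difference between neighbours was not made.

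**Figure D2:**
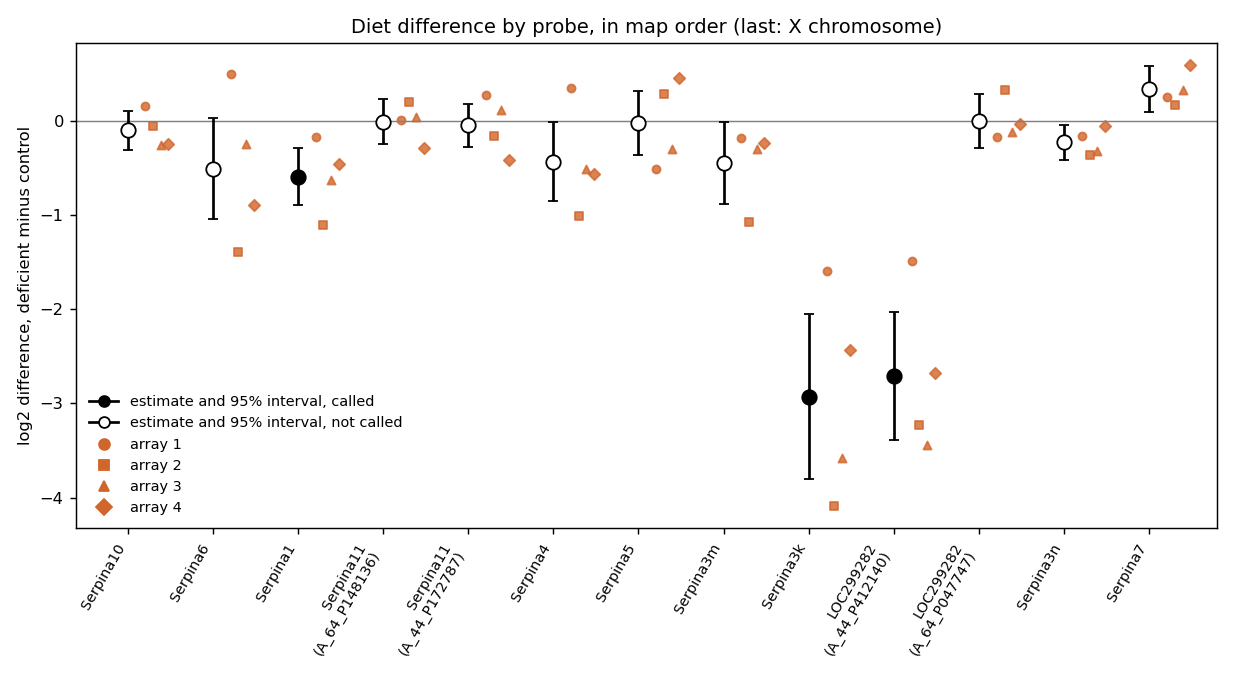
Log2 difference, deficient minus control (vertical axis), for each SERPINA probe in rn4 map order along chromosome 6, with Serpina7 of the X chromosome last. Circles with bars are estimates with 95% intervals, filled where called, and small markers are the differences on the 4 arrays. Serpina3k at -2.93 and one LOC299282 probe at -2.71 lie far below the other probes, which are between -0.59 and 0.33.

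The stretches just before the transcription starts of 3 neighbouring Serpina3 genes are printed because these promoters are near copies of each other. The differences above were not of like size if Serpina3l is read by the brighter LOC299282 probe. By the second probe Serpina3l was at -0.0037, and which probe reports it was not tested. The stretches come from RefSeq on the GRCr8 build, 150 bases each, 5' to 3' along the gene. Capitals mark TTCNNNGAA, the core letters that STAT factors are known to bind, searched on both strands of the 250 bases before each start.
Serpina3l, chr6:129063056-129063205, plus strand: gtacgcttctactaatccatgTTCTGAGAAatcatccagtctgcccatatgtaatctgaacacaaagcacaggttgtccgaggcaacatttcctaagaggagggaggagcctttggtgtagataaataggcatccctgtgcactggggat
Serpina3n, chr6:129088242-129088391, plus strand: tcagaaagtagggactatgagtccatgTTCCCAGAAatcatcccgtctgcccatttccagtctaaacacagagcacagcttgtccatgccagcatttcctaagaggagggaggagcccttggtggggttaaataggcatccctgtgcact
Serpina3m, chr6:128836840-128836989, minus strand: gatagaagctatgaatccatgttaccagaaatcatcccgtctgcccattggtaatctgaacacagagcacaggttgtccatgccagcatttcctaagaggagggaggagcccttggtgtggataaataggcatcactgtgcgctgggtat
Serpina3l and Serpina3m matched at 127 of 150 bases (84.7%), Serpina3m and Serpina3n at 130 (86.7%), and Serpina3l and Serpina3n at 119 (79.3%). The motif lay 129 to 121 bases before the start in Serpina3l and 123 to 115 bases before it in Serpina3n, and its letters were not in the Serpina3m window. Promoter windows were at hand for 7 of the 10 members, without Serpina3k. Serpina11 held TTCNNNGAA 14 to 6 bases before its start, and 7.67% of 33469 promoter windows held it. The C/EBP letters TTGCNNAA stood on the minus strand of Serpina4 (197 to 190 bases before the start) and Serpina7 (11 to 4), and in 9.22% of all windows. No match overlapped a match of another motif, and a match describes letters only.

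Among the other inhibitors, Serpina4 (kallistatin, an inhibitor of tissue kallikrein) read 15.32, 15.31, 15.19 and 15.25 in controls. It read 14.17, 14.68, 15.67 and 14.79 in deficient livers, of which deficient replicate 3 was above every control and the other 3 were below. The difference was -0.44 ± 0.18 (95% interval -0.86 to -0.02) and it was not called. Without deficient replicate 3 it was -0.68 and without array 1 -0.65, both called, while without deficient replicate 1 it was -0.28 and without array 3 -0.22, not called. Serpina10, the protein Z-dependent inhibitor of activated factor X, read 14.28, 14.33, 14.22 and 14.30 in controls and 14.16, 14.05, 14.44 and 14.06 in deficient livers. The difference was -0.10 ± 0.09 (95% interval -0.31 to 0.11), with overlapping groups.

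Serpina5 (protein C inhibitor) gave the dimmest probe, with a signal 6.27 to 20.1 times its local background. It read 8.88, 9.38, 9.27 and 8.98 in controls and 9.55, 9.43, 8.36 and 9.07 in deficient livers. The deficient values lay on both sides of the controls, with a difference of -0.02 ± 0.15 (95% interval -0.36 to 0.31) whose direction turned in 5 of 26 other settings. Serpina11, a secreted clade A protein of poorly known function, had 2 probes. The brighter one read 13.90, 13.74, 13.66 and 13.67 in controls and 13.85, 13.38, 13.91 and 13.78 in deficient livers. Its difference was -0.01 ± 0.11 (95% interval -0.25 to 0.23), and that of the second probe was -0.05 ± 0.10. For Serpina11 the direction turned in 10 of 26 settings.

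The hormone carriers differed in direction. Serpina7, thyroxine-binding globulin, was the only member above 0. It read 12.44, 12.18, 12.03 and 12.02 in controls and 12.20, 12.61, 12.69 and 12.51 in deficient livers. The deficient sample was higher on 4 of 4 arrays, yet the groups overlapped because deficient replicate 1 lay below control replicate 1. The difference was 0.33 ± 0.11 (95% interval 0.09 to 0.58) and it was not called. Without deficient replicate 1 it was 0.45 and called, as it was in the authors' deposited table at 0.39.

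Serpina6 is corticosteroid-binding globulin, which carries glucocorticoids in blood. It read 13.40, 13.91, 13.56 and 14.54 in controls and 12.16, 13.64, 13.89 and 13.67 in deficient livers. Deficient replicate 1 was well below all other livers, whose values mixed between the groups. The arrays disagreed, with differences of 0.50, -1.40, -0.24 and -0.90, and the difference over all arrays was -0.51 ± 0.23 (95% interval -1.04 to 0.02, not called). Without deficient replicate 1 it was -0.25, and without array 3 -0.32, neither called.

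Over the 10 members the median difference was -0.33, beside 0.0094 over all 14857 genes, and 9 of 10 members were below 0, beside 48.2% of all genes. Nothing is read from these values, because the members were picked with diet results known. Serpina3n, Serpina5, Serpina10 and Serpina11 changed sign in some other settings. In the deficient group replicate 1 was the lowest liver for 7 of 10 members and replicate 3 the highest for 8 of 10. Replicate 3 shares array 1 with the male control, where skeletal muscle markers differed by a median of 2.79, against 0.14, 0.34 and 0.0316 on arrays 2, 3 and 4. Of these muscle markers 5 of 10 were measured and 4 were not called. The 1 called was Tnnc2, higher by 2.85 ± 0.19 (limma adjusted p = 0.000462) and on every array, with 3.12, 2.93, 2.57 and 2.775. The log2 of the summed intensities of the measured muscle markers was 10 to 10.54 in controls and 11.01 to 13.41 in deficient livers. Without deficient replicate 3 the difference of Serpina3k was -3.43 and that of Serpina1 -0.65, both called. Without deficient replicate 1 that of Serpina3k was -2.53 and called.

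**Figure D3:**
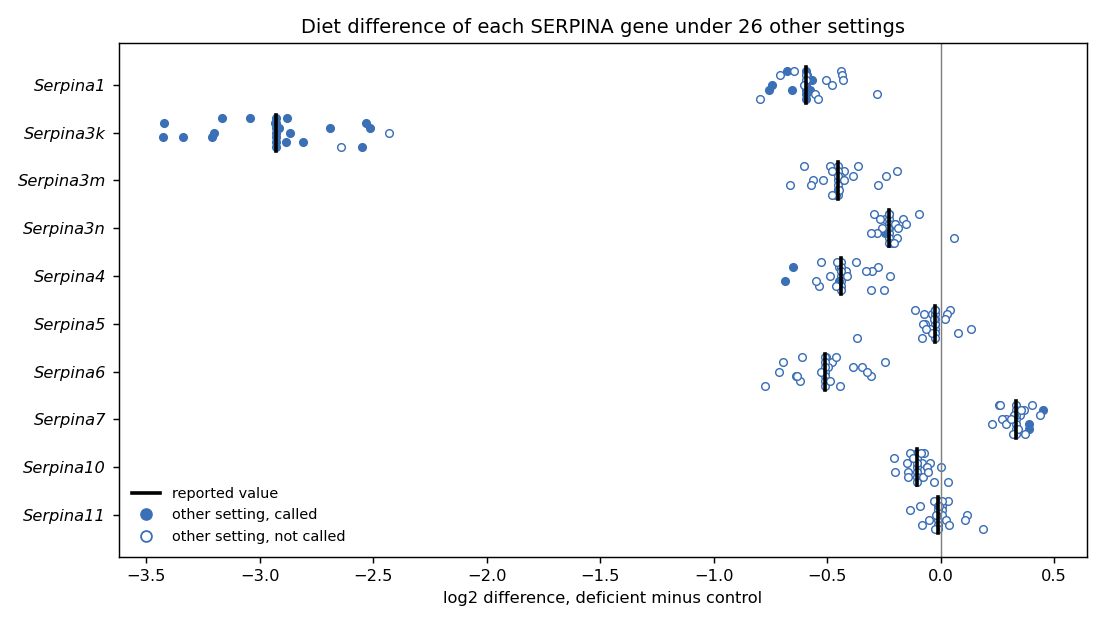
Log2 difference, deficient minus control (horizontal axis), of each SERPINA gene under 26 other settings of the processing or the samples, filled where called, with the reported value as a black line. Serpina3k ranges from -3.43 to -2.43 and Serpina1 from -0.80 to -0.28, while the values of Serpina3n, Serpina5, Serpina10 and Serpina11 fall on both sides of 0.

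Sex was not used to choose the members, so it was tested. With sex added to the fit, 0 of 10 members and 0 of 14857 genes were called (limma), and 399 genes (2.69%) had an unadjusted p under 0.05. Among the members the smallest unadjusted limma p was 0.148, for Serpina10, which was -0.17 ± 0.10 in 3 males against 5 females, with an adjusted p of 1. Serpina3k differed by -0.23 ± 0.48, male minus female, with an interval of -1.35 to 0.88 that is wide. A diet by sex term rests on 1 male control and called no member in limma, the smallest unadjusted p being 0.0393 for Serpina11 (adjusted 0.41). Dye called 0 of 10 members in limma, with 2 under 0.05 before adjustment, and 0.0269% of all genes.

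Other clade A genes were scarce on these arrays. Agt, which encodes the non-inhibitory serpin angiotensinogen, differed by 0.13 ± 0.12 (limma adjusted p = 0.537). Probes of Serpina1f, Serpina3j, Serpina9, Serpina12 and Serpina16 were well above background in 0 of 8 samples.

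Plasma serpins of other clades were lower in part. Of 6 measured, 4 fell, 0 rose and 2 were not called, beside 6.60% of all genes called lower and 4.58% called higher. This list, like the gene lists below, was chosen with earlier results of these data known. Nothing is therefore read from its count. Serpind1 (heparin cofactor II) fell by 0.82 ± 0.15 (limma adjusted p = 0.0131) and Serpinf1 (pigment epithelium-derived factor) fell by 0.76 ± 0.17 (limma adjusted p = 0.024). Serpinf2, the plasmin inhibitor, fell by 0.67 ± 0.09 (limma adjusted p = 0.00494), and Serpinc1, antithrombin, fell by 0.53 ± 0.11 (limma adjusted p = 0.022). Over all 6 measured plasma serpins of other clades the median difference was -0.60. Of 6 measured intracellular and tissue serpins, which stay in cells or work locally, 0 were called in limma, 1 had an unadjusted p under 0.05, and the median was -0.05.

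Of the proteases that SERPINA inhibitors are known to act on, 11 were measured and 1 was called, beside 11.2% of all genes. Nothing is read from this count. F2, prothrombin, fell by 0.61 ± 0.13 (limma adjusted p = 0.0216), while F10, the factor whose active form the Serpina10 protein inhibits, was at -0.27 ± 0.13 (limma adjusted p = 0.218). Elane, Prtn3 and Ctsg, the neutrophil proteases held in check by Serpina1 and Serpina3 proteins, were well above background in 0 of 8 samples. Of the neutrophil markers 7 of 9 were measured and 5 were called lower, S100a9 at -0.97 included, beside 6.60% of all genes. The other 2, Lcn2 at 0.45 and Mpo at 0.06, were not called. The log2 of the summed intensities of the 7 was 11.35 to 12.09 in controls and 10.78 to 11.26 in deficient livers. The part of neutrophil RNA in the member values was not tested. Among 7 Kupffer cell, 5 erythroid, 4 endothelial, 3 cholangiocyte, 2 lymphocyte and 1 pancreas markers measured, 0 were called in limma, with unadjusted p under 0.05 for 1 erythroid, 1 endothelial, 1 cholangiocyte and 1 pancreas marker. Of 6 stellate cell markers, Lrat, which esterifies retinol, was the 1 called, and it was lower.

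Of the partners of the hormone carriers and of the inhibitors, 9 were measured, 4 fell and 5 were not called. Of all genes 6.60% were called lower and 4.58% higher, and nothing is read from the count of this list. Ttr (transthyretin), the other thyroid hormone carrier of rat plasma, fell by 0.89 ± 0.15 (limma adjusted p = 0.00874), and Dio1, the liver deiodinase that activates thyroxine, fell by 1.25 ± 0.20 (limma adjusted p = 0.00786). Hsd11b1, which regenerates active glucocorticoid, fell by 0.70 ± 0.15 (limma adjusted p = 0.0205). Lrp1, a receptor that clears serpin-protease complexes, fell by 0.49 ± 0.12 (limma adjusted p = 0.0409). Albumin (Alb), which binds hormones loosely, was at -1.01 ± 0.28 (limma adjusted p = 0.0512), and Nr3c1, the glucocorticoid receptor, at 0.14. Procr was at 0.29 ± 0.08 (limma adjusted p = 0.0571), higher in the deficient sample on every array.

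Among 19 measured liver factors and parts of cytokine and growth hormone signalling that act on SERPINA genes, 4 fell, 0 rose and 15 were not called. This count stands beside 6.60% of all genes called lower and 4.58% called higher, and nothing is read from it. The 4 were the receptors Ghr, which binds growth hormone and fell by 0.98 ± 0.16 (limma adjusted p = 0.00896), Il6r, which binds interleukin-6 and fell by 0.61 ± 0.09 (limma adjusted p = 0.00624), and Il6st, the shared signalling subunit of interleukin-6 type receptors, which fell by 0.43 ± 0.11 (limma adjusted p = 0.0354), with the transcription factor Stat5a at -0.45 ± 0.11 (limma adjusted p = 0.0316). The hepatocyte factor Hnf4a (-0.16), and Stat3 (0.01), Cebpb (-0.06) and Socs3 (0.08) were not called.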

How the data were processed

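Spot intensities were deposited by the authors as 1 Agilent 2-colour file per sample, read out by Agilent Feature Extraction (version 10.7.1.1, per the submitters' processing notes). Samples with identical files shared an array. Background was corrected on mean signals by normexp (limma 3.58.1, R 4.3.3, offset 50), and values were normalised by loess within arrays (control spots at weight 0) and by Aquantile between arrays. Before that, 74 spot values with a local background over 5 times the channel median were left out, a step known from earlier results. Flagged outlier spots were dropped, spots of a probe averaged, probes kept if well above background in at least 4 of 8 samples, and the brightest probe stood for a gene. Gene names are those of the files. The fit held diet, dye and, as a random block, the array (correlation 0.421, kept where samples were left out). The authors' deposited table of normalised intensities, of normalisation not given in the sources used here, served as an alternative.

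The members, gene lists and tests were chosen with earlier results of these data known. All members are named, with every probe. From each gene list up to 4 genes with the smallest p and a few of known role are named, all measured other clade A serpins are named, and the closing genes are from the 5 nearest in profile. Some genes under these rules are not reported here. Replicates were numbered in accession order and pair no animals. The scripts were tested on simulated data.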

Additional observations from a re-analysis of the deposited data

Results flagged for a closer look

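Serpina6 in deficient replicate 1 read 12.16, apart from the other deficient livers, of which the nearest was 13.64 and the farthest 13.89. The gap made up 0.854 of the range of the group, above Dixon's 95% critical value for 4 samples. It was 1 of 22 groups of 4 examined, and chance passes that value in about 5% of groups. No explanation was tested.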

How the results depend on the processing

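The fall of Serpina3k was called in 24 of 26 other settings, with values from -3.43 to -2.43, and was not called in females alone (-2.64, limma adjusted p = 0.0892) or without array 3 (-2.43, limma adjusted p = 0.058). Serpina1 stayed lower in 26 of 26 settings and called in 11. The number of genes called for diet (1661) was 954 with the high-background spots kept, 400 without the array block, 469 from within-array ratios, 824 with sex as a term, 3504 with sample weights and 59 in females alone, and 141 to 2209 with 1 animal or array left out. The number of SERPINA genes called (2) was 1 with those spots kept, with Agilent's processed signals, without the array block, from within-array ratios and with sex as a term. It was 5 with sample weights, 0 in females alone and 0 to 3 with 1 animal or array left out, the 0 being without array 3. In the authors' deposited table the 2 called were Serpina3k and, higher, Serpina7. Differences close to 0 changed sign, in each case without a call: Serpina5 was at 0.043 with the spots kept, 0.135 without deficient replicate 3, 0.078 without control replicate 3, and 0.030 and 0.019 without arrays 1 and 2 (from -0.12 to 0.135 with 1 animal or array left out). Serpina11 was at 0.0057 with processed signals, 0.0036 with offset 10, 0.0063 with sex as a term, 0.023 with sample weights, 0.036 in the deposited table, 0.185 in females alone, 0.034, 0.115 and 0.0074 without control replicate 1, deficient replicate 2 and control replicate 4, and 0.107 without array 4 (from -0.13 to 0.115). Serpina3n was at 0.059 in the deposited table, and Serpina10 at 0.034 in females alone and 0.0030 without array 3 (from -0.21 to 0.0030). Signal over background limits Serpina5 most. SERPINA genes called for sex numbered 0 in 23 of 23 settings. Replicate numbers do not pair animals. Samples are paired by array, which the within-array ratios above use, and there Serpina1 was not called (limma adjusted p = 0.0932).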

Other observations

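Genes listed here as protease inhibitors of plasma, serpins aside, were mostly lower in deficient livers. Whether each product, that of Hrg included, inhibits a protease was not checked. Of 16 measured, 12 were called lower, 0 were called higher and 4 were not called, with a median difference of -0.62. Of all genes 6.60% were called lower and 4.58% higher. The 4 not called lay on both sides of 0, with Kng1 at -0.32, Tfpi at 0.26, Cst3 at 0.17 and Spink3 at 2.62 ± 0.82 (limma adjusted p = 0.0761). For Spink3 the array differences were -0.33, 1.82, 4.13 and 4.84. Hrg, the histidine-rich glycoprotein, fell by 1.51 ± 0.17 (limma adjusted p = 0.00271), and Fetub, fetuin-B, fell by 1.19 ± 0.14 (limma adjusted p = 0.00286). Itih1, a heavy chain of the inter-alpha-trypsin inhibitors, fell by 0.76 ± 0.12 (limma adjusted p = 0.00727), and Ambp, which encodes their bikunin light chain, fell by 0.65 ± 0.09 (limma adjusted p = 0.0045). For Ambp the differences on arrays 1 to 4 were -1.07, -0.26, -1.37 and 0.08. The deficient sample was in Cy3 on arrays 1 and 3, and the fit held dye as a term.

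The mean profile of Serpina3k and Serpina1 over the 8 livers, each standardised, was set against 9958 genes with a symbol. The nearest were Afm (r = 0.994), which encodes the vitamin E-binding plasma protein afamin, Fgg (r = 0.992), a fibrinogen chain, and Mvd, Mcfd2 and Slc40a1 (r = 0.991 each). All 5 were called lower. Afm fell by 1.13 ± 0.19 (limma adjusted p = 0.00995). The shared diet difference enters these values. After group and dye means were removed the nearest included Phf20 (r = 0.996), Afm (r = 0.991), Acbd3 (r = 0.991) and Ddx50 (r = 0.99), of which Afm was the one called for diet. These correlations describe 8 samples that share arrays in pairs.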
